A study of Mus musculus with 6 samples.

Results

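Radial glia identity genes are 10 genes that mark the neural stem cells of the embryonic cortex, namely Pax6, Sox2, Vim, Nes, Fabp7, Emx2, Hopx, Ptprz1, Tnc and Prom1. They were taken by symbol from a table of 17348 genes, where all 10 had an entry, and each was compared between Ybx1 conditional knockout (cKO) and control (Ctrl) cortex at E18.5. All 10 passed the filter on low counts, as did 13570 genes in all. Ybx1 is an RNA- and DNA-binding protein of the cold shock domain family that reads 5-methylcytosine in mRNA, and the series asks how cortical RNA changes without it. The cKO embryos carry Nestin-Cre and 2 floxed copies of Ybx1 (Ybx1 fl/fl, founders made in C57BL/6J), so that Cre removes exons 3 to 8 in neural progenitors and in the cells they give rise to, in and outside the cortex. The controls are labelled WT. The study defines its control genotype as Ybx1 fl/fl and calls the littermates used for sequencing wild type, and neither description gives the controls a Cre transgene, so Cre and the loss of Ybx1 cannot be told apart. mRNA from dissected cortex was sequenced in 3 libraries of each group. How many embryos went into a library was not given in the sources used here, and the p-values measure the spread between these libraries.

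Radial glia line the ventricle, send a long process to the surface of the cortex, and produce neurons directly or through intermediate progenitors. Late in gestation many of them lose their ventricular contact or turn to making astrocytes, and some become the basal radial glia of the subventricular zone. Their identity rests on transcription factors that hold the progenitor state, on intermediate filaments of the long process, and on surface and matrix proteins of the stem cell niche. Several of these genes are also used by astrocytes, oligodendrocyte precursors and blood vessel cells.

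Library totals ran from 15091951 to 16885451 estimated counts, and 3 counts correspond to 0.176 to 0.206 CPM (counts on TMM-scaled library totals, the level used below), and that floor covers counting error only. Ybx1 itself was counted 16184, 22152 and 13950 times in controls 1 to 3 and 387, 394 and 390 times in cKO 1 to 3, a log2 fold change of -5.47 ± 0.16 (SE; adjusted p = 6.95e-07, edgeR quasi-likelihood test). The Y-linked gene Kdm5d had 1116, 856 and 1112 counts in Ctrl and 0 in each cKO library, so the sex of the embryos and the genotype cannot be told apart. Cortical neuron genes were abundant in all libraries, with a summed level of 7565 to 9517 CPM in Ctrl and 7563 to 8572 in cKO, and 5 choroid plexus genes summed to at most 0.619 CPM. Control libraries 2 and 3 stood apart by transcript length, control 2 the further. Taking the length implied by the deposited counts and FPKM values, 2722 tested genes under 1500 bases had a median log2 level 0.44 relative to the mean of the other controls in control 2 and -0.31 in control 3. For 2520 genes over 5000 bases the same differences were -0.49 and 0.32. The other controls for control 3 include control 2. As deviations from each gene's mean over the 6 libraries, the short and long medians were 0.34 and -0.39 in control 2. They were -0.16 and 0.15 in control 3, and -0.02 and 0.06 in control 1. The median log2 fold change of cKO over Ctrl was -0.12 in the short class and 0.11 in the long class. The part of length in any single result was not tested beyond the refits with length and GC corrections given at the end.

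None of the 10 radial glia identity genes passed an adjusted p of 0.05 over all genes tested, against 10 of 13570 genes (0.0737%) in the same edgeR test. At an unadjusted p under 0.05, 1 of the 10, Pax6, was reached, where 6.62% of all genes were. By direction that is 1 of 10 higher in cKO against 3.14% of all genes, and 0 of 10 lower against 3.49%. DESeq2 called 0 of the 10, against 99 of the 12254 genes to which it gave an adjusted p (0.808%). The fold changes were small and lay on both sides of 0, with 6 genes higher and 4 lower in cKO. Their median log2 fold change was 0.0095 and that of all genes 0.0027, while the median size without sign was 0.131 for the 10 and 0.129 for all genes. The 95% interval lay within a 2-fold change in either direction for all 10 genes, and within a 1.5-fold change for 8, the exceptions being Fabp7 and Hopx. The tissue is bulk, so fewer radial glia and less RNA per cell cannot be told apart, here and in every result that follows.

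**Figure D1:**
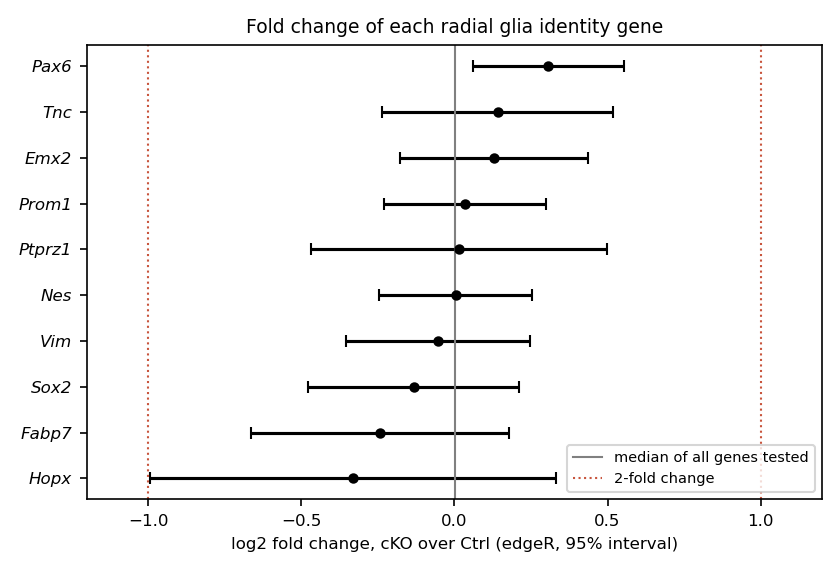
Log2 fold change of cKO over Ctrl for each of the 10 radial glia identity genes with its 95% interval (edgeR, 3 libraries a group), with the median of all genes tested as a grey line and 2-fold changes dotted. The interval of Pax6 (0.06 to 0.55) lies above 0, those of the other 9 genes include 0, and none reaches past a 2-fold change.

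Pax6, a paired box and homeobox factor of dorsal radial glia, was the 1 gene of the 10 with an unadjusted p under 0.05 in edgeR. Its level was 42.6, 45.1 and 37.5 CPM in Ctrl and 52.0, 50.5 and 52.4 CPM in cKO. Every cKO library lay above every control library. That held for Pax6 alone among the 10 genes in CPM. Such a count is not above the share over all genes tested, of which 14.3% had groups that did not overlap. The log2 fold change was 0.31 ± 0.11 (SE, 95% interval 0.06 to 0.55), a 1.24-fold higher level in cKO. The unadjusted edgeR p was 0.0204 and the adjusted p 0.608, so the difference did not pass the test over all genes. The exact two-sided permutation p was 0.1, the smallest that 3 libraries against 3 allow. In TPM, the authors' values scaled for transcript length, the groups were also apart, with 25.2 to 27.6 in Ctrl and 35.0 to 37.1 in cKO. On that scale the groups of Emx2 did not overlap either. The share of all genes with groups apart in TPM was not computed. On the log2(TPM + 1) scale Pax6 differed by 0.46, on which the median of all tested genes was itself shifted by 0.14, leaving 0.32 relative to that median. The difference was positive in each of 18 alternative analyses and had an unadjusted p under 0.05 in 13 of the 16 that gave a p. The lowest of those p-values, 0.0023 (adjusted p = 0.123), came without control 2. The unadjusted edgeR p was not under 0.05 without control 3 (0.062), without cKO 1 (0.052) or without cKO 3 (0.072). The alternatives that kept all 6 libraries refit the same data. The coefficient of variation over libraries was 9.36% in Ctrl and 1.87% in cKO. In GENCODE M21 (GRCm38), Pax6 lies at chr2:105668900-105697364 on the plus strand. The antisense transcript Pax6os1 shares 1431 bases of its span and 0 exon bases, and was not analysed here. Elp4, the neighbouring elongator subunit gene on the other strand, had a log2 fold change of 0.10 ± 0.15 (SE; adjusted p = 0.919).

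Sox2, the high mobility group factor that keeps neural progenitors undifferentiated, did not separate the groups. Its levels were 73.3, 84.7 and 64.7 CPM in Ctrl and 78.6, 55.8 and 68.8 CPM in cKO. The lowest and the second highest library were both cKO. The log2 fold change was -0.13 ± 0.15 (SE, interval -0.48 to 0.21, adjusted edgeR p = 0.90, exact permutation p = 0.5). It ran from -0.25 without cKO 1 to -0.01 without cKO 2. Sox2 (chr3:34650405-34652461, plus strand) lies whole within the span of Sox2ot on the same strand with 0 shared exon bases, and Sox2ot was not analysed here.

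Emx2, a homeobox factor of the dorsal telencephalon that helps set cortical area identity, was at 16.7, 18.7 and 16.6 CPM in Ctrl and at 17.5, 18.1 and 21.3 CPM in cKO. The groups overlapped in CPM, through control 2, and did not in TPM, where the controls ran from 15.7 to 16.9 and the cKO libraries from 18.3 to 21.9. On the log2(TPM + 1) scale Emx2 differed by 0.25, while the median of all tested genes was itself shifted by 0.14. The fitted log2 fold change was 0.13 ± 0.14 (SE, interval -0.18 to 0.44, adjusted edgeR p = 0.893, exact permutation p = 0.3). Leaving out 1 library gave 0.04 (without cKO 3) to 0.19 (without control 2). Emx2 (chr19:59458372-59465357, plus strand) shares 264 exon bases with Emx2os on the other strand. Whether the counting used strand was not given in the sources used here, so reads of that stretch cannot be assigned to one of the pair, and Emx2os was not analysed here.

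Hopx, an atypical homeodomain protein without DNA binding that marks basal radial glia and adult-type stem cells, was the lowest of the 10. It had 80, 115 and 41 counts in Ctrl and 63, 64 and 58 in cKO, or 5.0, 6.7 and 2.8 CPM against 3.9, 4.0 and 3.7 CPM. The 3 cKO libraries lay inside the span of the controls. Hopx had a log2 fold change of -0.33 ± 0.29 (SE, interval -0.99 to 0.33, adjusted edgeR p = 0.864, exact permutation p = 0.7), the widest interval of the set. Control 2 was 0.82 above and control 3 was at -1.02 relative to the other controls on the log2 scale, in the direction both libraries took for short transcripts. The part of this in the result was not tested beyond leaving libraries out and the length corrections. Without control 3 the log2 fold change was -0.60 with an unadjusted p of 0.0206, an adjusted p of 0.304 and no call, and without control 2 it was -0.02 with an unadjusted p of 0.938.

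**Figure D2:**
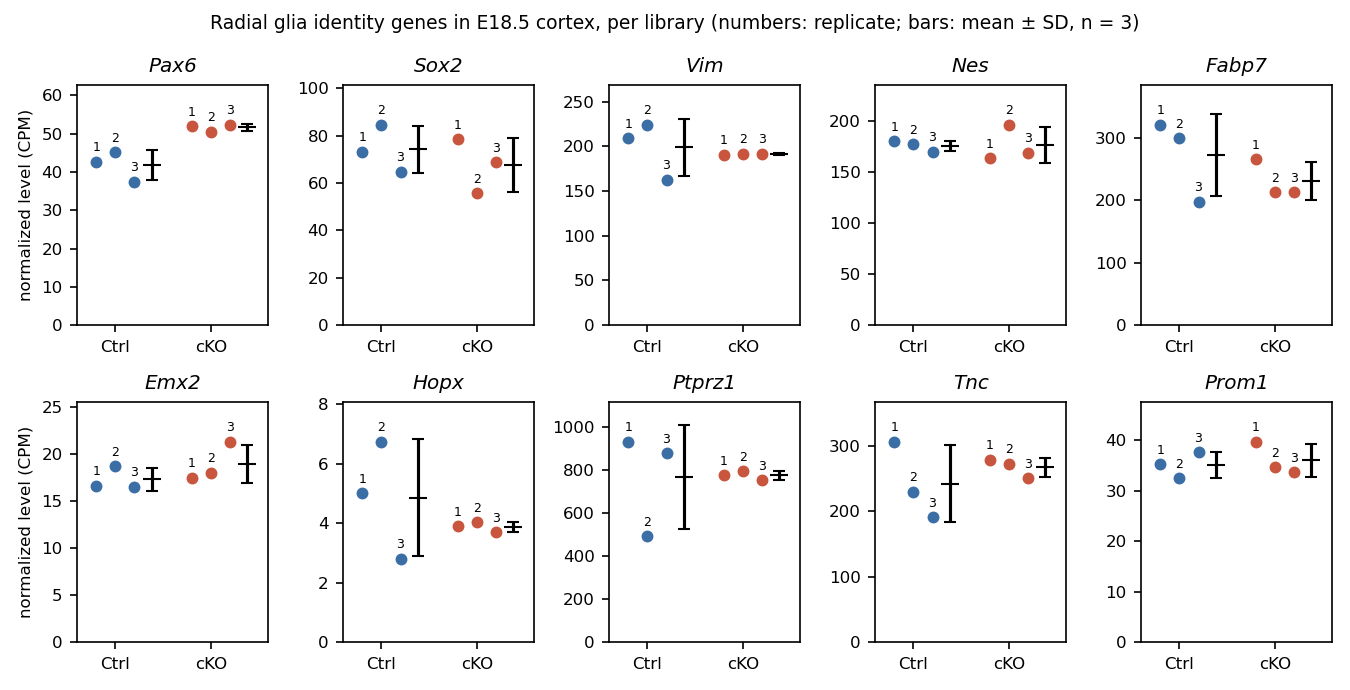
Normalized level (CPM, linear axes starting at 0) of the 10 genes in each library, with the replicate number above each point and the mean ± SD of 3 libraries beside each group. Pax6 is the one gene whose 3 cKO libraries (50.5 to 52.4 CPM) all lie above the controls (37.5 to 45.1 CPM), while for Hopx and Ptprz1 the controls spread far wider than the cKO libraries.

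The series concerns a Y-box binding protein, a family named for binding the Y box, an inverted CCAAT element of promoters. The 250 bases upstream of each RefSeq start (GRCm38.p6) were therefore searched for CCAAT and, as the same letters on the other strand, ATTGG, over every start listed for a gene. At least 1 match was found for 7 of the 10 genes (70%), against 37.5% of the 27025 genes with an entry and 40.8% of the 10794 tested genes with one. Of the 7, Vim and Fabp7 held 2 each, and Nes, Ptprz1 and Tnc had none. A match describes these letters only, and the RNA levels say nothing of binding there. The study found Ybx1 protein mostly in the cytoplasm of neural progenitor cells, and holds that a transcriptional function of it may be questionable. The windows of Pax6, whose groups did not overlap, and of Sox2 and Fabp7, whose groups did, are shown with the matches in capitals. The first base of the match lies 54 bases before the start in Pax6 (chr2:105668646-105668895, plus strand), 46 before it in Sox2 (chr3:34649745-34649994, plus strand), and 126 and 56 before it in Fabp7 (chr10:57784673-57784922, plus strand).
Pax6: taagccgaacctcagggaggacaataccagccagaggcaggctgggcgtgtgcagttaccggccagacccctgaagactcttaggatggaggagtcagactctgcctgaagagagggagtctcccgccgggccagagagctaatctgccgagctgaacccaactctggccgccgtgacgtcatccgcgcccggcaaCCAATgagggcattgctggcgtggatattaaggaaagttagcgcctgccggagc
Sox2: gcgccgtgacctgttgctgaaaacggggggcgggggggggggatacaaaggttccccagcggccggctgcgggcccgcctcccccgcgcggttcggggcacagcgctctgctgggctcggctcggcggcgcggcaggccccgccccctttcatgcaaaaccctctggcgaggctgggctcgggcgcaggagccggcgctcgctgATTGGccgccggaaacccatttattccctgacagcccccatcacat
Fabp7: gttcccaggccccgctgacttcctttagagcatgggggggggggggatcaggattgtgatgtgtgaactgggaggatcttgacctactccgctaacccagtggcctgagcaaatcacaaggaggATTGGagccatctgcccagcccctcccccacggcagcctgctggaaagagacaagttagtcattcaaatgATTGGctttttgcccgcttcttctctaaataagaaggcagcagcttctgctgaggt
Pax6 carries its match as CCAAT, Sox2 and Fabp7 as ATTGG. The second listed start of Pax6 and that of Prom1 had no match, and both listed starts of Hopx had 1.

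The intermediate filament genes Vim and Nes showed no difference. Vim, which encodes vimentin of the radial process, was at 209.3, 224.3 and 162.4 CPM in Ctrl and at 190.4, 191.8 and 191.8 CPM in cKO. The cKO libraries were nearly equal and sat between the lowest and the middle control. The log2 fold change was -0.05 ± 0.13 (SE, interval -0.35 to 0.25, adjusted edgeR p = 0.949, exact permutation p = 1). Nes, which encodes nestin and whose regulatory sequence also names the Cre driver of the cKO, was at 180.3, 177.4 and 170.3 CPM in Ctrl and at 163.6, 196.8 and 169.1 CPM in cKO. The highest and the lowest library were both cKO. Here the cKO libraries spread wider, with a coefficient of variation of 10.1% against 2.93% in Ctrl. The implied length of Nes is 5818 bases. Controls 2 and 3 were at 0.02 and -0.07 relative to the other controls, beside medians of -0.49 and 0.32 for genes over 5000 bases. The fitted log2 fold change was 0.0042 ± 0.11 (SE, interval -0.25 to 0.25, adjusted edgeR p = 0.995, exact permutation p = 1). Vim lies at chr2:13573927-13582826 and Nes at chr3:87971078-87980451, both on the plus strand.

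Fabp7, the brain lipid binding protein that carries fatty acids in radial glia and young astrocytes, was at 320.9, 298.8 and 197.7 CPM in Ctrl and at 265.6, 212.5 and 212.6 CPM in cKO. Controls 1 and 2 were above the cKO libraries and control 3 was below all of them. The fit gave Fabp7 a log2 fold change of -0.24 ± 0.19 (SE, interval -0.66 to 0.18, adjusted edgeR p = 0.857, exact permutation p = 0.4). Its transcript is the shortest of the 10 by implied length, 455 bases, and control 3 stood at -0.65 relative to the other controls. Without control 3 the log2 fold change was -0.43 with an unadjusted p of 0.0119 and an adjusted p of 0.269, and without control 1 it was -0.11 with an unadjusted p of 0.608. The part of that library in the result beyond this was not tested. Fabp7 lies at chr10:57784881-57788450 on the plus strand.

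Ptprz1 and Tnc encode a receptor and matrix pair of the niche, a receptor-type tyrosine phosphatase with long sugar chains and the glycoprotein tenascin-C. Ptprz1, the most counted of the 10, was at 931.1, 491.8 and 878.8 CPM in Ctrl and at 775.3, 795.7 and 754.2 CPM in cKO. Control 2 was far below and the other controls above all cKO libraries, which left the fitted log2 fold change at 0.01 ± 0.21 (SE, interval -0.47 to 0.50, adjusted edgeR p = 0.991, exact permutation p = 1). Control 2 stood at -0.88 relative to the other controls, for a transcript of 6722 bases by implied length, and its part in the result beyond leaving it out was not tested. Without control 2 the direction turned, to -0.22 with an unadjusted p of 0.0162 and an adjusted p of 0.284. Tnc was at 306.0, 230.1 and 190.9 CPM in Ctrl and at 278.5, 272.6 and 250.7 CPM in cKO. Control 1 was above and the other controls below all cKO libraries. Tnc is also long, 6450 bases by implied length, but did not follow its length class. Control 2 stood at -0.07 and control 3 at -0.47 relative to the other controls, beside medians of -0.49 and 0.32 for genes over 5000 bases. The log2 fold change was 0.14 ± 0.17 (SE, interval -0.24 to 0.52, adjusted edgeR p = 0.90, exact permutation p = 0.6). Leaving out control 1 gave 0.34 with an unadjusted p of 0.0437 that did not pass after adjustment, and leaving out control 3 gave -0.0039. Ptprz1 lies at chr6:22875502-23052916 on the plus strand and Tnc at chr4:63959785-64047015 on the minus strand.

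Prom1, the pentaspan membrane protein prominin-1 of the apical surface of stem cells, was at 35.2, 32.5 and 37.6 CPM in Ctrl and at 39.6, 34.6 and 33.7 CPM in cKO. The groups overlapped, with the lowest library in Ctrl and the highest in cKO. Prom1 had a log2 fold change of 0.03 ± 0.12 (SE, interval -0.23 to 0.30, adjusted edgeR p = 0.965, exact permutation p = 0.7). Prom1 (chr5:43993620-44102032) and Hopx (chr5:77086988-77115121) are both on the minus strand of chromosome 5.

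Scaled for length, the 10 genes spanned about 2 orders of magnitude. In TPM, Fabp7 led with 1251 ± 282 in Ctrl and 1190 ± 172 in cKO (mean ± SD, n = 3 in each group, as for all values here). Vim followed with 274 ± 29.7 and 295 ± 0.479, then Ptprz1 with 250 ± 85.3 and 271 ± 5.20. Over the 6 libraries the ranges of Vim and Ptprz1 overlapped, while Fabp7 lay above both without overlap. The overlap came from the controls, where Ptprz1 (301) was above Vim (242) in control 3. In cKO Vim (294 to 295) lay above Ptprz1 (265 to 275). Tnc (80.7 ± 19.8 and 97.4 ± 5.09), Sox2 (72.6 ± 3.81 and 73.8 ± 12.7) and Nes (64.4 ± 4.92 and 71.3 ± 6.84) formed an overlapping middle run below Ptprz1. Pax6 (26.2 ± 1.28 and 36.3 ± 1.09) lay below Nes without overlap. Its range overlapped that of Prom1 (21.8 ± 3.29 and 24.7 ± 2.36), which overlapped that of Emx2 (16.2 ± 0.609 and 19.6 ± 2.05). Within every single library, though, Pax6 was above Prom1 and Prom1 above Emx2. Hopx was last with 12.2 ± 3.93 and 11.1 ± 0.509, apart from Emx2. In TPM the mean was higher in cKO for 8 of the 10 genes, against 6 in CPM. All tested genes were shifted the same way in TPM, by a median of 0.14 on the log2(TPM + 1) scale, and 6 of the 10 lay above that median.

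The controls differed among themselves more than the cKO libraries did. The coefficient of variation over libraries had a median of 14.9% in Ctrl and 7.22% in cKO across the 10 genes. The range in log2 CPM was wider in Ctrl for 6 of the 10, below the 77.2% of all genes tested with a wider control range. Control 3 was the lowest control for 8 of the 10 genes and the lowest of all 6 libraries for 6. Control 2 was the lowest of all libraries for 2 genes and the highest for 3. Summed over the 10 genes, the level was 2120, 1610 and 1759 CPM in Ctrl and 1865, 1832 and 1758 CPM in cKO, so that the cKO sums lay between the highest and the lowest control. The genes whose patterns came nearest to the mean pattern of the 10 over the 6 libraries were Otud1, Sirt5 and Plxnb2, with a root mean square distance of 0.0329, 0.0345 and 0.0363 in log2 CPM. The 10 genes themselves lay 0.076 (Vim) to 0.33 (Ptprz1) from it. That mean pattern was nearly flat, from -0.18 in control 3 to 0.12 in control 1, so genes that vary little lie near it.

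**Figure D3:**
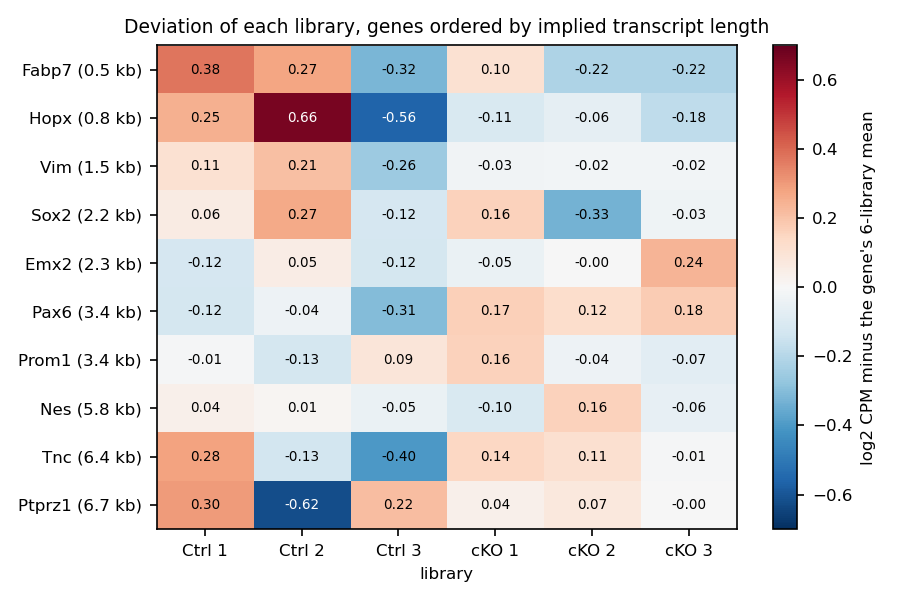
Log2 CPM of each gene in each library minus the gene's mean over 6 libraries, as a colour and a printed value, with genes ordered from the shortest (top) to the longest transcript by implied length in kilobases. The largest deviations of the whole grid are Hopx in control 2 (0.66) and control 3 (-0.56) and Ptprz1 in control 2 (-0.62), the lowest Sox2 value is in cKO 2 (-0.33), and the cKO columns for Pax6 are all positive (0.12 to 0.18).

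No other gene listed for the same cells passed. The counts in this and the following lists stand beside shares over all genes tested. Of those, 3.14% had an unadjusted p under 0.05 and were higher in cKO, and 3.49% were lower at that p. In sign alone, 49.4% were lower in cKO. Of 24 further ventricular zone radial glia genes, 0 passed the adjusted test and 1 had an unadjusted p under 0.05 in edgeR. That gene was Sox1, a close relative of Sox2, at 58.8 ± 8.84 CPM in Ctrl and 46.5 ± 4.62 in cKO (SD, log2 fold change -0.34 ± 0.14 SE, adjusted p = 0.711). The 2 most counted were Cdh2, the N-cadherin of the apical junctions (log2 fold change 0.06 ± 0.12 SE), and the LIM homeobox factor Lhx2 (-0.05 ± 0.14 SE). The list's median log2 fold change was 0.02, with 13 genes positive and 11 negative. Of 10 genes tied to basal radial glia, 0 passed and 2 had an unadjusted p under 0.05, both higher in cKO. Moxd1, a monooxygenase-like protein, was at 1.02 ± 0.27 and 1.80 ± 0.069 CPM (log2 fold change 0.83 ± 0.27 SE, adjusted p = 0.569). Il6st, the shared receptor chain gp130 of the LIF pathway, was at 29.1 ± 6.84 and 39.6 ± 2.53 CPM (0.44 ± 0.17 SE, adjusted p = 0.659). Sall1, a zinc finger factor, had a log2 fold change of 0.14 ± 0.15 (SE), and the median of the 10 was 0.17, with 7 positive.

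The binding partners and ligands of the 10 genes gave no call. Of 12 tested, 0 passed, 2 had an unadjusted p under 0.05 and 9 were positive in cKO over Ctrl, with a median log2 fold change of 0.15. In 4 of the 12 the groups did not overlap, beside 14.3% of all genes. That count was 2 in each of the basal radial glia, family relative, astrocyte, vascular and microglia lists. It was at most 1 in every other list. Cntn1, the contactin bound by Ptprz1, was at 63.5 ± 10.1 CPM in Ctrl and 90.2 ± 7.13 in cKO (log2 fold change 0.51 ± 0.14 SE, adjusted p = 0.465). Itgb1, the integrin subunit of tenascin and laminin receptors, was at 163.0 ± 21.4 and 208.2 ± 10.3 CPM (0.35 ± 0.12 SE, adjusted p = 0.607). Ptn, the pleiotrophin ligand of Ptprz1, had a log2 fold change of 0.13 ± 0.15 (SE), and Pou3f3, a POU factor of the family that acts with Sox2, one of -0.07 ± 0.15 (SE). Of the closest family relatives of the 10, 9 of 10 genes could be tested and 0 passed. Their median was -0.27 with 6 negative, and 2 had an unadjusted p under 0.05, Sox1 and the neuronal intermediate filament gene Ina (335 ± 25.2 and 278 ± 9.91 CPM, -0.27 ± 0.11 SE, adjusted p = 0.687). Fabp5, the epidermal relative of Fabp7, had a log2 fold change of -0.18 ± 0.12 (SE). Some genes stand in more than 1 of these lists, as Sox1 does.

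Markers of the cells that radial glia give rise to did not pass either, nor did genes of dividing cells, which include radial glia themselves. Of 7 intermediate progenitor genes tested, 0 had an unadjusted p under 0.05, with a median log2 fold change of 0.01, and Eomes and Insm1 were at 0.05 ± 0.12 and -0.10 ± 0.14 (SE). Of 10 dividing cell genes, 9 were negative with a median of -0.12 and 0 at an unadjusted p under 0.05, the exception in sign being Mki67 (0.06 ± 0.18 SE), beside Top2a at -0.07 ± 0.13 (SE). The 10 cortical neuron genes had a median of -0.09 and 0 at that p, with Dcx at -0.02 ± 0.23 and Map2 at 0.16 ± 0.16 (SE). Among 8 astrocyte genes tested, 1 had an unadjusted p under 0.05, higher in cKO. It was Aqp4, the water channel of astrocyte endfeet, at 2.64 ± 0.55 and 4.39 ± 1.73 CPM (log2 fold change 0.74 ± 0.31 SE, adjusted p = 0.718). Sparcl1 (0.07 ± 0.10 SE) and Aldoc (0.36 ± 0.24 SE) were the most counted of that list, whose median was 0.05. The 5 oligodendrocyte precursor genes had a median of -0.22, with Pdgfra at -0.22 ± 0.24 and Olig1 at -0.26 ± 0.31 (SE). Foxj1, the 1 ependymal gene tested, was at 0.32 ± 0.23 (SE).

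Cells that share some of the 10 genes or border the dissection were checked in the same way, again with 0 adjusted calls in edgeR. Endothelial and pericyte genes summed to 335 to 407 CPM in Ctrl and 386 to 479 in cKO. Of 7 tested, 6 were positive with a median log2 fold change of 0.25, and 2 had an unadjusted p under 0.05, the endothelial cadherin Cdh5 (0.41 ± 0.13 SE) and the pericyte receptor Pdgfrb (0.27 ± 0.11 SE), with Rgs5 at 0.25 ± 0.17 and Kdr at 0.23 ± 0.17 (SE). Meningeal fibroblast genes summed to 10.4 to 12.1 CPM in Ctrl and 13.6 to 14.4 in cKO, with Col3a1 at 0.03 ± 0.20 and Col1a2 at 0.42 ± 0.19 (SE) among 3 of 5 tested. The subpallial and interneuron list had a median of 0.02 over 7 genes (Dlx1 -0.30 ± 0.17, Lhx6 0.14 ± 0.11, SE), the microglia list one of 0.08 over 5 (Csf1r 0.06 ± 0.14, Cx3cr1 0.19 ± 0.13, SE) and the erythroid list one of -0.04 over 5 (Hbb-bs 0.06 ± 0.15, Hba-a1 -0.16 ± 0.16, SE). The meningeal sums were thus higher in every cKO library, and the vascular sums overlapped between the groups. Meningeal sums were not alone in lying apart. Those of the binding partners did too, at 3374 to 3471 CPM in Ctrl and 3570 to 3896 in cKO. The family relatives lay apart the other way, at 903 to 971 CPM in Ctrl and 822 to 861 in cKO. The part of any of these sums in the levels of the 10 genes was not tested.

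**Figure D4:**
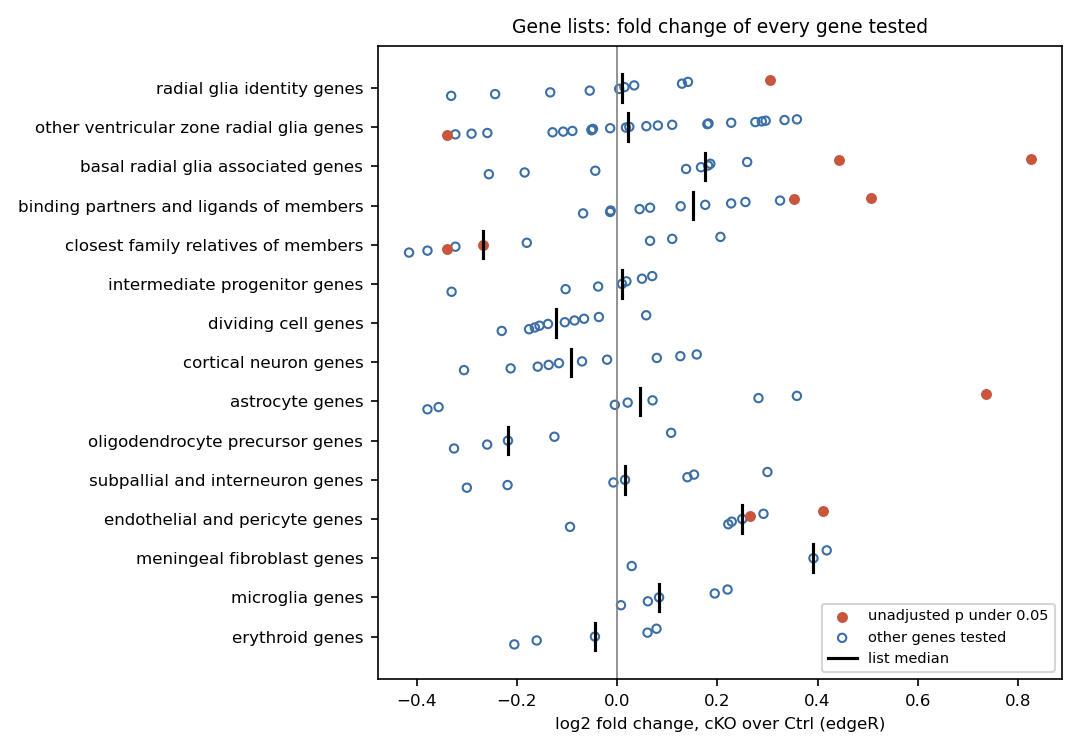
Log2 fold change of cKO over Ctrl (edgeR) of every gene tested in each gene list, as 1 point per gene, filled where the unadjusted p was under 0.05, with the list median as a black bar. The 10 radial glia identity genes run from -0.33 (Hopx) to 0.31 (Pax6) around a median of 0.0095, and the endothelial and pericyte list lies further to the right with a median of 0.25.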

How the data were processed

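RNA-seq of E18.5 cortex, 3 Ctrl and 3 cKO libraries, was read from 1 table with 27 columns. For each gene and library the authors deposited 3 values. Their deposited estimated counts are unscaled. Their deposited TPM values are divided by transcript length and brought to one sum per library, and their deposited FPKM values are divided by length and library total. Another 6 columns of group means by the authors were not used. The submitters' processing notes list HISAT2 2.2.1, Bowtie2 2.4.5 and RSEM 1.3.1 with the builds GRCm38 and mm10, without roles. Annotation, strandedness and the counting rule were not given in the sources used here.

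Estimated counts (89.4% whole, within 1e-09) were rounded. Genes were filtered with filterByExpr, scaled by TMM and compared with the quasi-likelihood test of edgeR 4.0.16 in R 4.3.3, with Benjamini-Hochberg adjustment over 13570 genes and a threshold of 0.05. SE was the log2 fold change divided by the root of F. The exact permutation tests were two-sided, on log2 CPM. Alternatives were DESeq2 1.42.0, RLE factors, other filters, another threshold, a replicate block, each library left out, TMM without translation genes, the authors' TPM and FPKM values on the log2(value + 1) scale, and smooth length and GC corrections (mgcv 1.9.3). The correction on implied length was added after the data were seen. GENCODE M21 gave positions and, for 96.7% of genes, length and GC, and RefSeq the promoters. Library totals were 15091951 to 16885451 counts, and the biological coefficient of variation common to all genes was 0.147. No library repeated another (chi-square per degree of freedom 3.52 to 65.4). The methods were checked on simulated counts. Figures were drawn with matplotlib 3.10.9.

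The 10 genes and all lists were chosen with earlier results of these data known. Named from each list were genes passing the test, up to 3 with the smallest unadjusted p under 0.05, and the 2 most counted.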

Additional observations from a re-analysis of the deposited data

How the results depend on the processing

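None of the 10 genes was called in any of the 16 alternatives with a test, the lowest adjusted p being 0.123 (Pax6 without control 2), and the median log2 fold change of the 10 in those 16 was between -0.064 and 0.033. On log2(TPM + 1) it was 0.16 and on log2(FPKM + 1) 0.057, beside 0.14 and 0.042 for all tested genes. Direction was less firm for genes near 0. With no filter on low counts Nes was at -0.010 and Ptprz1 at -0.0014. With the length and GC correction Nes was at -0.072, Ptprz1 at -0.083 and Prom1 at -0.052, and 7 of the 10 were lower in cKO. With the replicate block added these were -0.074, -0.073 and -0.054, again with 7 lower. With the correction on implied length and GC, Vim was at 0.021, Nes at -0.059, Ptprz1 at -0.12 and Prom1 at -0.034, and with the replicate block 0.025, -0.060, -0.11 and -0.036. Tnc, Hopx and Fabp7 kept their direction, at 0.024, -0.38 and -0.31 with the length and GC correction. On implied length and GC they were at 0.041, -0.25 and -0.17, beside 0.14, -0.33 and -0.24 in the main fit. On log2(TPM + 1), where the median of all genes is shifted, Sox2 was at 0.010 and Vim at 0.11, and on log2(FPKM + 1) Vim was at 0.0051. Leaving out 1 library gave log2 fold changes of 0.23 to 0.37 for Pax6, -0.25 to -0.011 for Sox2, 0.037 to 0.19 for Emx2, -0.60 to -0.020 for Hopx, -0.43 to -0.11 for Fabp7, -0.18 to 0.041 for Vim, -0.080 to 0.057 for Nes, -0.22 to 0.18 for Ptprz1, -0.0039 to 0.34 for Tnc and -0.040 to 0.086 for Prom1, and 0 to 2 of the 10 at an unadjusted p under 0.05. The cause of these differences was not tested.

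The count over all genes depended more on the processing: 10 genes passed, 18 at an adjusted p under 0.1, 99 with DESeq2, 30 with the length and GC correction (17 with the replicate block), 256 on implied length (356 with the replicate block), and 8 to 122 with 1 library left out, the most without control 2. Without control 3 it was 19. The replicate block alone gave 11. Same-numbered libraries deviated together with correlations of 0.0884, 0.0615 and 0.23 across genes, each the highest for its number, but the labels tie the numbers to no litter or batch, so they were taken to share only a number. With 3 libraries a group, the intervals of 9 of the 10 genes included 0, and fold changes of the sizes inside those intervals were not excluded. The interval of Pax6 left out 0, without adjustment over all genes.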
